A study of Mus musculus with 36 samples.

Results

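Expression of the Gadd45 growth arrest genes was followed in the mouse pre-B cell line B3 after induction of the transcription factor Ikaros. The members were chosen by symbol in the table of 12762 genes, and all 4 were present: Gadd45a, Gadd45b, Gadd45g and Gadd45gip1. Members and gene lists were chosen with earlier results of these data known, so p-values and counts below are not independent of that choice. There were 36 mRNA-seq libraries from 2 derivatives of B3, each sampled at 6 times (0, 2, 6, 12, 18 and 24 h) in 3 cultures. In Ikaros cells a retroviral MSCV vector encodes HA-tagged Ikaros fused to ERt2, the hormone-binding domain of the estrogen receptor, followed by an IRES and GFP, and 4-hydroxy-tamoxifen (4-OHT) moves the fusion protein into the nucleus. Control cells carry the ERt2 vector without Ikaros, and both lines are transduced populations, so that each line stands for a single derivation. A dose of 0.5 uM 4-OHT is attached to all samples in the labels, those at 0 h too, but by the study's methods the latter were untreated cells gathered on other occasions. Libraries came from culture batches 1, 2 and 4 at 0 h and 1, 3 and 4 later, numbered as replicates 1, 2 and 3 of each group, so a comparison with 0 h also compares collection occasions. Nothing in the labels says that batches of one line came from separate derivations, and p-values measure the spread between these cultures.

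Gadd45a, Gadd45b and Gadd45g encode small acidic nuclear proteins with no enzyme activity of their own, which act by binding others. They bind and activate the kinase Map3k4 upstream of p38 and JNK, bind the replication clamp Pcna and the CDK inhibitor Cdkn1a, interfere with the mitotic kinase Cdk1 bound to cyclin B1, and have been linked to repair-based DNA demethylation. Gadd45a is a classic target of p53 and of Foxo factors, Gadd45b (MyD118) responds to NF-kB and TGF-beta signals, and Gadd45g (CR6) to cytokines. Gadd45gip1 (CRIF1) is not related to them in sequence: it is named for binding Gadd45 proteins and is a component of the large subunit of the mitochondrial ribosome.

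The genes lie on 4 chromosomes of GRCm38, the same build as mm10, and GENCODE M21 annotates each as protein coding. Gadd45a (ENSMUSG00000036390) is on chromosome 6 from 67035096 to 67037457 on the reverse strand, with 4 exons. Gadd45b (ENSMUSG00000015312) is on chromosome 10 from 80930073 to 80932204 on the forward strand, with 4 exons. Gadd45g (ENSMUSG00000021453) is on chromosome 13 from 51846678 to 51848468 on the forward strand, with 4 exons. Gadd45gip1 (ENSMUSG00000033751) is on chromosome 8 from 84831522 to 84835482 on the forward strand, with 2 exons. Gadd45a overlaps its antisense transcript E230016M11Rik. The libraries mark strand, but the strand setting of the counting is not given in the sources used here, so reads wherever one of the 4 genes overlaps another are uncertain.

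RefSeq promoter sequence was matched for 3 of the 4 genes. The 250 bases before each RefSeq start (GRCm38.p6) are shown for these 3 genes, and they were searched for short motifs. No promoter sequence was at hand for Gadd45gip1, so it was not searched. Capitals mark CCAAT boxes (CCAAT), the E box CACGTG and the octamer core TTTGCAT, each on both strands and with no overlap between them.
Gadd45a, chr6:67037408-67037657, reverse strand: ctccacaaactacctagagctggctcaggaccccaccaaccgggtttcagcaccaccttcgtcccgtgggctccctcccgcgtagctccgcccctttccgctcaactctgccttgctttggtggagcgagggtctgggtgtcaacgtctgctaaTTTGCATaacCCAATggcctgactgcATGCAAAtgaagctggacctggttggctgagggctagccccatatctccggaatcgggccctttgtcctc
Gadd45b, chr10:80929841-80930090, forward strand: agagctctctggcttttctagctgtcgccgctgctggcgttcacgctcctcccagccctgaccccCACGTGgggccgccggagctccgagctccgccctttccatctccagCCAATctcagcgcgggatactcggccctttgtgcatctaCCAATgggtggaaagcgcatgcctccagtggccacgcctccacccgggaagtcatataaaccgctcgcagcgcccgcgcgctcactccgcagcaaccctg
Gadd45g, chr13:51846425-51846674, forward strand: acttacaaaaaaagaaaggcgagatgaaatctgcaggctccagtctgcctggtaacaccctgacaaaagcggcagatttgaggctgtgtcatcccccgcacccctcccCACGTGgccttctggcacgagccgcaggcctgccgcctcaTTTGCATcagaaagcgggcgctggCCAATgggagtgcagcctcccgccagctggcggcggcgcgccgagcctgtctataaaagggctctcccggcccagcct

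Each of the 3 promoters held a CCAAT box, and Gadd45b held 2. The E box was in those of Gadd45b and Gadd45g, and the octamer core was in those of Gadd45a, with 2 copies facing each other, and Gadd45g. Of all 32851 promoters searched in windows of the same length, 33.8% held the CCAAT box, 6.02% the E box and 4.12% the octamer core. These 3 motifs were chosen after the sequences had been seen. None of the 3 windows held the letters TGGGAA of an Ikaros core (21.6% of all promoters), GTAAACA of a Foxo site (3.17%) or TGACTCA of an AP-1 site (4.46%), which says only that these letters are not in these windows.

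Values are log2 expression as deposited, after the authors' correction for GC content, gene length and library preparation, shifted by a constant that is the same for all values. They are therefore read between libraries for one gene and not between genes. No counts were used here and the depth is unknown. Differences are Ikaros minus control on the log2 scale with the standard error (SE) of a limma model over all 12 groups, and calls were made where the Benjamini-Hochberg adjusted p over all genes was under 0.05. Library medians lay between 11.70 and 11.73, and Ikzf1, the gene for Ikaros, separated the lines as labelled: before induction the control mean was 14.70 ± 0.09 and the Ikaros mean 19.89 ± 0.16 (SD, n = 3), and no Ikaros library at any time was below any control library. Gene-level values do not separate the vector transcript from the cell's own Ikzf1. Of the marker genes listed, values were at hand for 12 of 12 of pre-B cells, 0 of 5 of T cells, 2 of 5 of myeloid cells and 3 of 6 of erythroid cells. Csf1r, Cd14, Mpo and the alpha globins were not analysed here. At 24 h the myeloid Lyz2 differed by -2.94 and Itgam by 4.24 and the beta globin Hbb-b2 by 1.82, and the part of such genes in the results that follow was not tested. The other measured erythroid markers were not called at that time. Of the pre-B markers, some were called higher, some called lower and others not called.

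**Figure D1:**
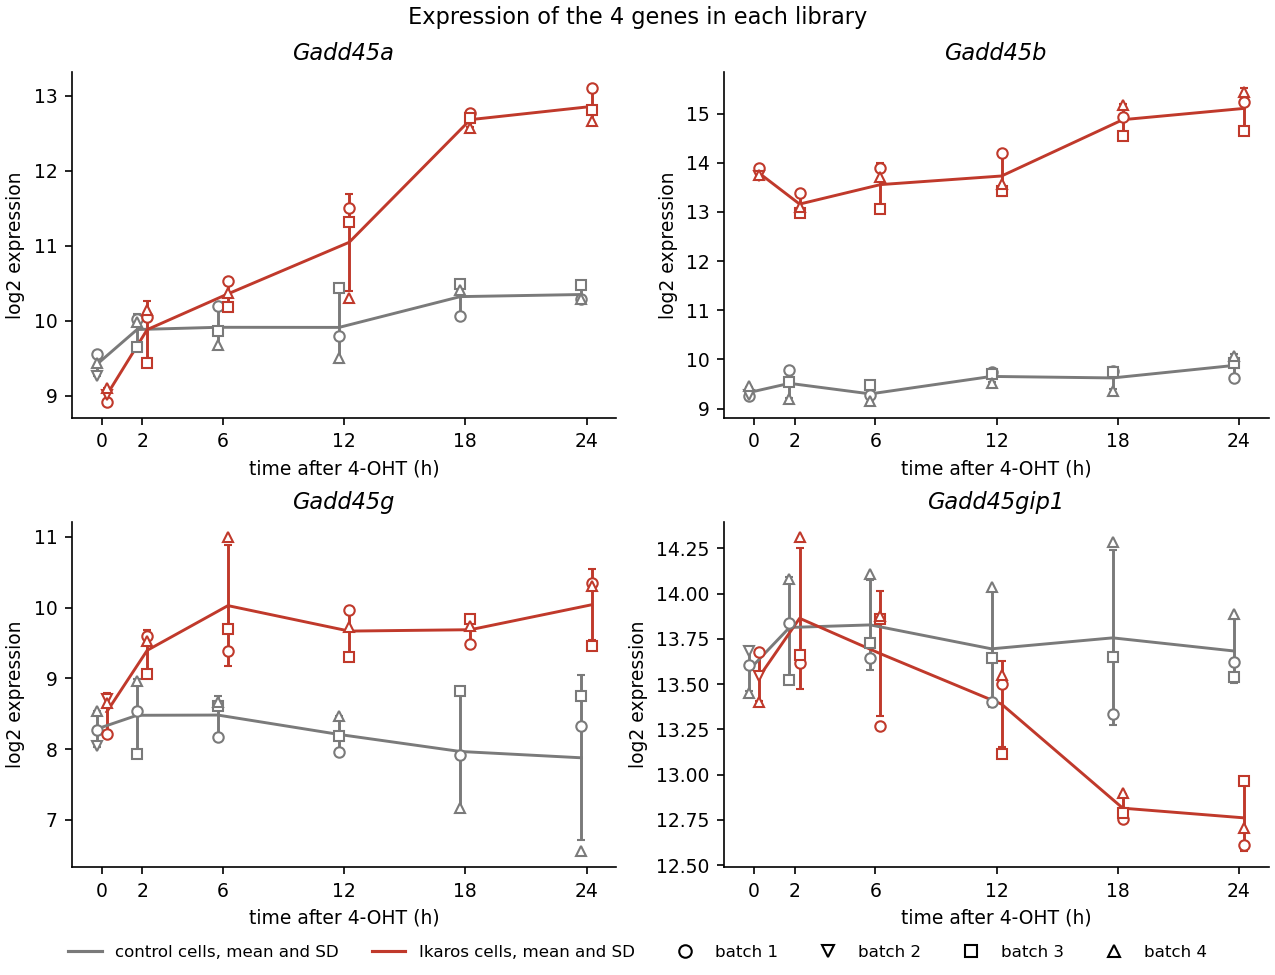
Log2 expression of the 4 genes against time after 4-OHT (h) in control (grey) and Ikaros cells (red). Each open symbol is a library, shaped by culture batch, and lines and bars are the mean and SD of 3 libraries. Gadd45b is apart between the lines at every time, Gadd45a lies above control without overlap from 18 h, Gadd45g lies higher in Ikaros cells from 2 h, and Gadd45gip1 lies lower at 18 and 24 h. Over all genes the lines do not overlap for 32.7%, 27.9%, 41%, 51%, 64.5% and 71% in order of time. The vertical scales differ between panels.

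Gadd45b differed most between the lines, and it did so before induction. In such bulk RNA more cells expressing a gene and more RNA per cell cannot be told apart. At 0 h the control libraries of batches 1, 2 and 4 stood at 9.26, 9.27 and 9.45 and the Ikaros libraries at 13.89, 13.73 and 13.74. At 2 h control was 9.79, 9.55 and 9.20 in batches 1, 3 and 4, and Ikaros 13.38, 12.99 and 13.11. The lowest Ikaros library at these times was thus more than 3 log2 units above the highest control library. At 6 h control was 9.27, 9.48 and 9.15 against 13.90, 13.05 and 13.71. At 12 h control was 9.74, 9.71 and 9.51 against 14.19, 13.42 and 13.57. Through 12 h the Ikaros libraries thus lay between 12.99 and 14.19. At 18 h control was 9.77, 9.75 and 9.36 against 14.92, 14.54 and 15.17. At 24 h control was 9.62, 9.94 and 10.08 against 15.23, 14.64 and 15.44. Every Ikaros library at 18 and 24 h lay above every Ikaros library of the earlier times.

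The difference between the lines in Gadd45b was 4.46, 3.65, 4.26, 4.08, 5.25 and 5.23 in order of time (SE 0.22 each), which on a base of 2 is 12.5-fold at its smallest, at 2 h, and 38.1-fold at its largest, at 18 h. Libraries of the lines did not overlap at any time, which over all genes held for 32.7% before induction and, in order of time, for 27.9%, 41%, 51%, 64.5% and 71% after it. These differences were known when the gene was chosen and are given as a description without a test. Within the 18 pairs of one batch and time the Ikaros culture was the higher in 18 of 18, by 3.44 to 5.81. The lines are separate transduced populations, and at 0 h an effect of the vector and one of the derivation of the line cannot be told apart.

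The course of Gadd45b inside each line was tested. These tests use the same libraries as the differences known when the gene was chosen, so their p-values are not independent of that choice. In Ikaros cells it was 13.79 ± 0.09 at 0 h and 13.16 ± 0.20 at 2 h (SD, n = 3), a fall of 0.63 log2 units (difference -0.63, SE 0.22, limma adjusted p 0.0485). That call was not kept with the batch fitted as a replicate block (-0.59, adjusted p 0.0551) and 19.2% of all genes were called in the same comparison. It was 13.56 ± 0.44 at 6 h and 13.73 ± 0.41 at 12 h, neither called against 0 h (adjusted p 0.454 and 0.853), where 32.8% and 46.1% of all genes were. It then rose to 14.88 ± 0.32 at 18 h and 15.10 ± 0.42 at 24 h (SD, n = 3). Against 0 h these were rises of 1.09 (SE 0.22, limma adjusted p 0.000177) and 1.32 (adjusted p 1.21e-05), in comparisons that called 54.6% and 60.6% of all genes. Against 2 h, when all cultures had received the drug, Gadd45b was higher by 1.72 at 18 h (limma adjusted p 3.67e-07) and by 1.95 at 24 h (adjusted p 2.91e-08), where 55.5% and 60.6% of all genes were called. The 12 h value was higher than that at 2 h by 0.57 (limma adjusted p 0.0444, with 38.4% of all genes called), a call lost when the 2 groups were fitted alone (adjusted p 0.152). The 6 h value was not called against 2 h (0.40, adjusted p 0.282), where 11.2% of all genes were.

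In control cells Gadd45b moved within a narrow range, with the lowest group mean 9.30 ± 0.16, at 6 h, and the highest 9.88 ± 0.23, at 24 h (SD, n = 3). The 24 h value exceeded that at 0 h by 0.55 (SE 0.22, limma adjusted p 0.329), and no control time was called against 0 h. Few genes were in control cells, with 0.047%, 5.1%, 0.0549%, 0.478% and 0.47% called from 2 to 24 h. Ordered by mean, the 6 control groups overlapped each neighbour, as did the Ikaros groups at 2, 6, 12 and 0 h and those at 18 and 24 h. The 2 gaps in the order lay between control at 24 h and Ikaros at 2 h and between Ikaros at 0 h and at 18 h.

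The genes beside Gadd45b did not share its difference before induction. The 3 measured genes on either side are Sppl2b, Timm13 and Lmnb2 and then Gng7, Slc39a3 and Sgta, all within 112 kb. At 0 h their differences lay between -0.26 for Gng7 (SE 0.52) and 0.10 for Slc39a3 (SE 0.25), and 0 of 6 were called by limma where 8.33% of all genes were. At 24 h 4 were called lower in Ikaros cells, when 31.9% of all genes were lower and 31% higher. They were Lmnb2 (difference -1.24, SE 0.09), Slc39a3 (-1.35, SE 0.25), Sppl2b (-0.51, SE 0.11) and Timm13 (-0.49, SE 0.12). Sgta was higher by 0.30 (SE 0.08), and Gng7 differed by 0.19 (SE 0.52, limma adjusted p 0.768).

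**Figure D2:**
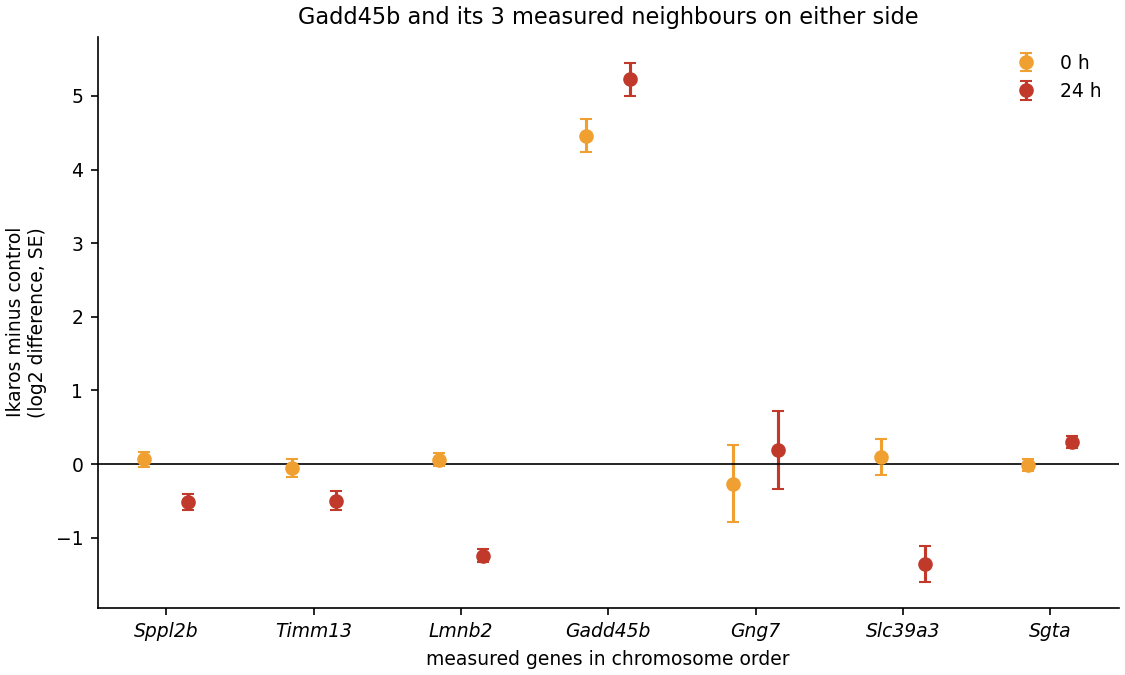
Difference Ikaros minus control (log2, with SE; 3 libraries per line) for Gadd45b and the 3 measured genes on either side in chromosome order, at 0 h (orange) and 24 h (red). Gadd45b stands at 4.46 and 5.23, and its neighbours lie between -0.26 and 0.10 at 0 h and between -1.35 and 0.30 at 24 h.

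Gadd45a, the p53 and Foxo target, rose through the course in Ikaros cells and ended 5.68-fold above control. At 0 h the control libraries stood at 9.55, 9.26 and 9.43 and the Ikaros libraries at 8.92, 9.01 and 9.10. At 2 h control was 10.02, 9.65 and 9.98 against 10.05, 9.44 and 10.15. The Ikaros libraries were thus all below control at 0 h, when 32.7% of all genes did not overlap in either direction, and interleaved with it at 2 h. At 6 h control was 10.19, 9.87 and 9.67 against 10.52, 10.18 and 10.37. At 12 h control was 9.80, 10.43 and 9.50 against 11.50, 11.32 and 10.31. At both times 1 Ikaros library lay below the highest control library, at 12 h that of batch 4. At 18 h control was 10.06, 10.49 and 10.41 against 12.76, 12.71 and 12.57. At 24 h control was 10.29, 10.47 and 10.28 against 13.10, 12.80 and 12.66. The lines did not overlap at either of these late times, which over all genes held for 64.5% at 18 h and 71% at 24 h.

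The difference in Gadd45a was -0.41 at 0 h (limma adjusted p 0.389), -0.0015 at 2 h (adjusted p 0.998) and 0.45 at 6 h (adjusted p 0.149), none of which was called. It was 1.13 at 12 h (limma adjusted p 0.000334), 2.36 at 18 h (adjusted p 3.45e-09) and 2.51 at 24 h (adjusted p 8.18e-10), with an SE of 0.24 throughout. The share of all genes called was 19.1% at 2 h and, in order, 37.3%, 45.8%, 58.2% and 62.9% at the later times. The 12 h difference was uneven between cultures, at 1.71 in batch 1, 0.89 in batch 3 and 0.81 in batch 4. Without replicate 1 it was 0.85 and not called (limma adjusted p 0.0541), nor was it called when the 2 groups were fitted alone (adjusted p 0.0692).

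Within Ikaros cells the mean of Gadd45a was 9.01 ± 0.09 at the start and 12.85 ± 0.22 at 24 h (SD, n = 3), a rise of 3.85 log2 units or 14.4-fold (SE 0.24, limma adjusted p 2.14e-13). The rise was called at each time against 0 h, from 0.87 at 2 h (limma adjusted p 0.0125) through 1.35 at 6 h, 2.04 at 12 h and 3.67 at 18 h. These comparisons called 19.2%, 32.8%, 46.1%, 54.6% and 60.6% of all genes from 2 to 24 h. The 2 h call was lost when the 2 groups were fitted alone (adjusted p 0.0640). The widest step was between 12 and 18 h, when the group mean went from 11.04 ± 0.64 to 12.68 ± 0.10. The libraries of these times did not overlap, and how often that held over all genes was not counted. Control cells went from 9.41 ± 0.15 to 10.35 ± 0.11, and their 24 h libraries all lay above those at 0 h. The same held for 13.3% of all genes, and 25.3% did not overlap in either direction. For Gadd45a that difference of 0.93 was not called (limma adjusted p 0.0769, unadjusted p 0.000620). Over the whole course the F test on the changes of the difference from 0 h called Gadd45a (F 25.8, limma adjusted p 3.50e-08) among 59.8% of all genes. The antisense E230016M11Rik differed by 0.87 at 24 h (SE 0.40, limma adjusted p 0.0600), and the other measured genes beside Gadd45a were uneven. The immunoglobulin kappa variable segment ENSMUSG00000095771, 1219 kb away, was higher by 2.69 (SE 0.54, limma adjusted p 9.96e-05), and its reads may be shared with similar segments. Serbp1 (-1.11, adjusted p 5.08e-08) and 4930597O21Rik (-1.33, adjusted p 0.0131) were lower, and Gng12 (0.05, adjusted p 0.717) and Gm15644 (0.48, adjusted p 0.579) were not called.

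**Figure D3:**
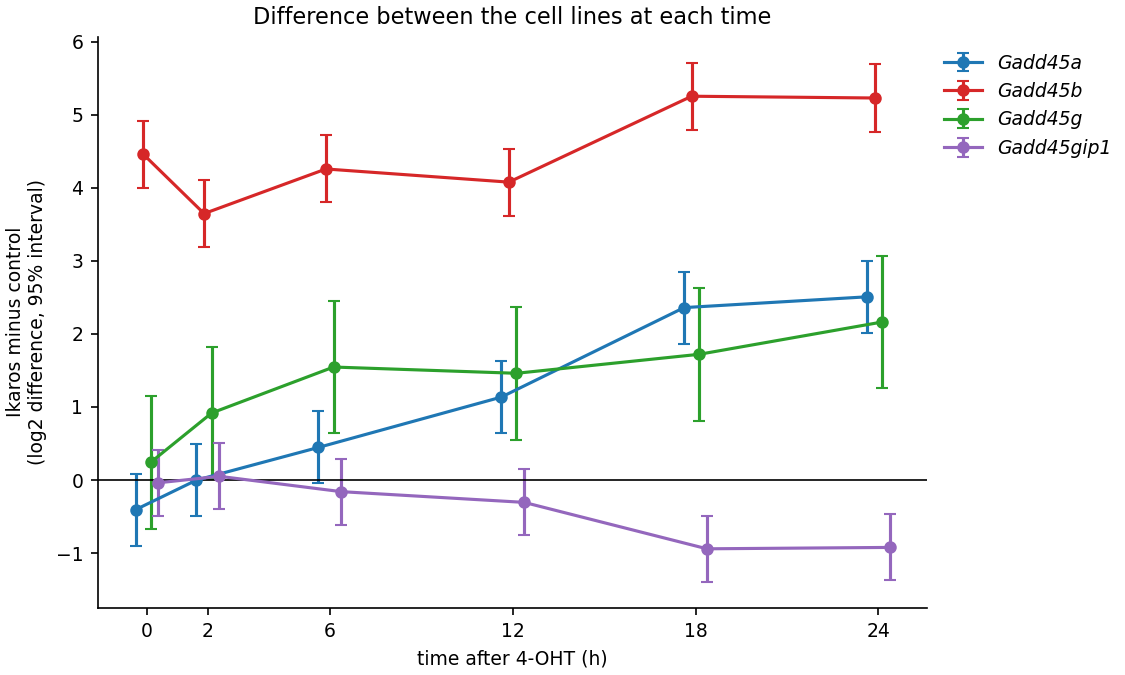
Difference Ikaros minus control (log2) of each gene against time after 4-OHT (h), with the 95% interval of the limma model. Gadd45b starts at 4.46 and ends at 5.23, Gadd45a goes from -0.41 to 2.51, Gadd45g from 0.24 to 2.16 and Gadd45gip1 from -0.04 to -0.92.

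Gadd45g, the cytokine-responsive member, was higher in Ikaros cells from 6 h on, with the widest spread between libraries of the 4 genes (pooled SD 0.56, against 0.28 to 0.30 for the others). At 0 h the control libraries stood at 8.26, 8.04 and 8.55 and the Ikaros libraries at 8.21, 8.71 and 8.66. At 2 h control was 8.54, 7.93 and 8.96 against 9.60, 9.07 and 9.52. The lines were mixed at 0 h and no longer overlapped at 2 h, when 27.9% of all genes did not. At 6 h control was 8.17, 8.61 and 8.66 against 9.39, 9.70 and 10.99. At 12 h control was 7.96, 8.19 and 8.48 against 9.97, 9.31 and 9.73. At 6 h the batch 4 Ikaros library stood 1 log2 unit or more above the other two. At 18 h control was 7.92, 8.82 and 7.17 against 9.49, 9.84 and 9.74. At 24 h control was 8.32, 8.76 and 6.56 against 10.35, 9.46 and 10.31. The batch 4 control culture was the lowest control library at both late times.

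The difference in Gadd45g was 0.24 at 0 h (limma adjusted p 0.852) and 0.92 at 2 h (adjusted p 0.161), neither called. It was 1.55 at 6 h (limma adjusted p 0.00746), 1.46 at 12 h (adjusted p 0.00831), 1.72 at 18 h (adjusted p 0.00160) and 2.16 at 24 h (adjusted p 0.000129), with an SE of 0.44. Of all genes, 37.3%, 45.8%, 58.2% and 62.9% were called at these times. The Ikaros culture was the higher in 17 of 18 batch pairs. Inside batches the 24 h difference was 2.03, 0.70 and 3.76 in batches 1, 3 and 4. Without the batch 4 control library it was 1.50 and remained called (limma adjusted p 0.00274), and without both batch 4 libraries it was 1.37 (adjusted p 0.00459). At 6 h the difference without the batch 4 Ikaros library was 1.06 and not called (limma adjusted p 0.0724). At 12 h the call was lost without replicate 1 (1.18, adjusted p 0.180).

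In Ikaros cells Gadd45g was 8.53 ± 0.27 at 0 h and between 9.40 ± 0.29 at 2 h and 10.04 ± 0.50 at 24 h afterwards (SD, n = 3). Against 0 h the rise was 1.50 at 6 h (limma adjusted p 0.0103), 1.14 at 12 h (adjusted p 0.0367), 1.16 at 18 h (adjusted p 0.0285) and 1.51 at 24 h (adjusted p 0.00448). These comparisons called 32.8%, 46.1%, 54.6% and 60.6% of all genes. With the batch fitted as a replicate block, calls at 12 h (1.13, adjusted p 0.0660) and 18 h (1.15, adjusted p 0.0549) were not kept. No later time was called against 2 h: the largest of these differences was 0.64 at 24 h (limma adjusted p 0.212), and the ranges of neighbouring Ikaros groups from 2 to 24 h overlapped. Control group means lay between 7.88 and 8.48, and none was called against 0 h. The F test over the course did not call Gadd45g (F 2.31, limma adjusted p 0.107), where 59.8% of all genes were called. Of the genes beside it, which lie up to 1119 kb away, Syk was higher by 2.33 at 24 h and Sema4d was lower (-1.29). Nfil3 (0.49), Auh (0.02), Secisbp2 (-0.04) and Gm22806 (0.00283) were not called.

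Gadd45gip1, the mitoribosomal partner, was the member that went down. At 0 h the control libraries stood at 13.60, 13.68 and 13.45 and the Ikaros libraries at 13.68, 13.54 and 13.40. At 2 h control was 13.84, 13.52 and 14.08 against 13.62, 13.66 and 14.31. The lines were mixed at both times. At 6 h control was 13.65, 13.73 and 14.11 against 13.27, 13.86 and 13.88. At 12 h control was 13.40, 13.65 and 14.04 against 13.50, 13.12 and 13.55. The control culture of batch 4 was the highest of its group at each time from 2 h on. At 18 h control was 13.33, 13.65 and 14.28 against 12.76, 12.79 and 12.90. At 24 h control was 13.62, 13.54 and 13.88 against 12.61, 12.97 and 12.70. All late Ikaros libraries lay below all late control libraries. Over all genes the lines did not overlap for 64.5% at 18 h and 71% at 24 h, with Ikaros the lower for 32.4% and 36.1%.

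The difference in Gadd45gip1 was -0.04 before induction and 0.05, -0.16 and -0.31 at 2, 6 and 12 h, none called (limma adjusted p 0.268 to 0.964). It was -0.94 at 18 h (SE 0.22, limma adjusted p 0.000648) and -0.92 at 24 h (adjusted p 0.000699), a 1.90-fold lower value at 24 h. Of all genes, 58.2% and 62.9% were called at these times. Inside batches the 24 h difference was -1.01, -0.57 and -1.18. Within Ikaros cells Gadd45gip1 fell against 0 h by 0.73 at 18 h (limma adjusted p 0.00676) and by 0.78 at 24 h (adjusted p 0.00339), and against 2 h by 1.05 and 1.10 log2 units. The comparisons with 0 h called 54.6% and 60.6% of all genes. The 18 h fall against 0 h was not called without replicate 1 (-0.63, limma adjusted p 0.0772) or 2 (-0.71, adjusted p 0.0925), nor that at 24 h without replicate 1 (-0.64, adjusted p 0.0659). At 12 h against 2 h it was -0.47 and not called (limma adjusted p 0.0902), but called with the replicate block (adjusted p 0.0434). Control cells showed no called change, with group means from 13.58 to 13.83. Of the measured genes beside it, Calr (-0.98), Nfix (-2.24) and Lyl1 (-1.86) were lower at 24 h, and Dand5 (0.61) and 1700122E12Rik (-0.65) were not called (limma adjusted p 0.0565 and 0.333). The F test over the course called Gadd45gip1 (F 3.98, limma adjusted p 0.0163) among 59.8% of all genes, but not without replicate 1, 2 or 3 (adjusted p 0.0647, 0.179 and 0.0580).

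Gadd45gip1 was one protein of a larger particle. Of 49 other genes for the large mitochondrial ribosomal subunit, 34 were lower in Ikaros cells at 24 h, 2 higher and 13 not called, with a median difference of -0.64 against -0.01 over all genes, of which 31.9% were lower. At 0 h 0 of the 49 were called, where 8.33% of all genes were. Mrpl52 (-2.27, SE 0.26) and Mrpl42 (-1.49, SE 0.13) fell furthest below control, and Mrpl9 (0.64, SE 0.11) and Mrpl43 (0.60, SE 0.12) were the 2 that were higher.

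The change of the difference from an early to a late time was called for Gadd45a at 12, 18 and 24 h against both 0 h and 2 h, for Gadd45gip1 at 18 and 24 h against both, and for Gadd45g at 24 h against 0 h. The calls for Gadd45gip1 and Gadd45g, and those for Gadd45a at 12 h, were each lost without 1 or more of the replicates. Over all genes 29.7%, 43% and 48.4% were called for the change from 0 h to 12, 18 and 24 h, and 22%, 42.2% and 47.3% for that from 2 h. In Gadd45b the difference changed from 0 h by 0.77 at 24 h (SE 0.32) and from 2 h by 1.58, which is given without a test.

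Compared by pairs inside the 18 Ikaros libraries, Gadd45a ran with Gadd45b (Pearson r 0.81) and with Gadd45g (r 0.57), and Gadd45gip1 against Gadd45a (r -0.80) and Gadd45b (r -0.86). In the 18 control libraries the same pairs gave r 0.52, -0.16, 0.08 and -0.37. These values are descriptions: libraries of one time and batch are not independent, and they share the time course.

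The genes most like each member over the 36 libraries were named by Pearson correlation. For Gadd45a they were Map1lc3b (r 0.954), an autophagosome protein, Gm14446 (0.952) and Gpcpd1 (0.942). For Gadd45b they were Sesn3 (r 0.979), a sestrin that restrains mTORC1, Ikzf1 (0.978) and the transcription factor Ets1 (0.978). The 2 lines form 2 clusters for these genes, so such an r mainly carries the gap between the lines: Sesn3 was 6.27 in control and 10.18 in Ikaros cells at 0 h. Over the 18 Ikaros libraries alone the likest genes to Gadd45b were Sptbn1 (r 0.957), Nprl2 (0.955) and Ankrd33b (0.954). For Gadd45g they were Lysmd1 (r 0.888), Zrsr1 (0.881) and the interferon receptor chain Ifnar1 (0.880). For Gadd45gip1 they were Rps27l (r 0.964), the ATP synthase subunit Atp5g1 (0.964) and the initiation factor subunit Eif2s2 (0.959).

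The direct protein partners of Gadd45 were mostly lower at 24 h. None of the 12 was called at 0 h, when 4.61% of all genes were higher and 3.72% lower, whereas at 24 h 4 were higher, 7 lower and 1 not called, with a median difference of -0.57. Of all genes, 31% were higher and 31.9% lower at that time. Among the kinases, Map3k4, the p38 and JNK activator that Gadd45 proteins bind, had a 24 h control mean of 12.73 ± 0.18. Its Ikaros mean at that time was 13.16 ± 0.08 (SD, n = 3), a difference of 0.43 (limma adjusted p 0.000315). Map2k7, a JNK kinase that Gadd45b can inhibit, differed by 0.56 (adjusted p 0.0494). Mapk14, which is p38 alpha, was lower from 6 h on and by 0.95 at 24 h (difference -0.95, adjusted p 9.61e-09).

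The cell cycle partners were lower at 24 h. Ccnb1, cyclin B1, was lower from 2 h on and differed by -1.25 at 24 h (limma adjusted p 1.65e-08), and its kinase Cdk1 was lower from 12 h on and differed by -0.86 (adjusted p 2.52e-08). Pcna was called at 24 h only, when the control mean was 18.04 ± 0.19 and the Ikaros mean 16.80 ± 0.29 (SD, n = 3; difference -1.24, limma adjusted p 0.000165). Cdkn1a, which is p21, changed sides: it was higher at 2 h (0.54, limma adjusted p 0.0295) and 6 h (0.77, adjusted p 0.000957) and lower at 24 h (-0.61, adjusted p 0.00340).

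The partners from DNA demethylation and repair were uneven. Tet1, a methylcytosine dioxygenase, was higher by 1.67 at 24 h, from a low level of 4.14 ± 0.19 in control cells (SD, n = 3; limma adjusted p 0.00623). Ing1, which can recruit Gadd45a to chromatin, was higher by 0.67 (adjusted p 0.00197). Tdg, the thymine glycosylase, was higher at 6 h (0.65, limma adjusted p 0.0126) and lower at 12 h (-0.64, adjusted p 0.0110) and 24 h (-0.52, adjusted p 0.0271). Taf12 was lower by 0.62 at 24 h (difference -0.62, limma adjusted p 0.00207), and the endonuclease gene Ercc5 differed by 0.34 and was not called (adjusted p 0.290).

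**Figure D4:**
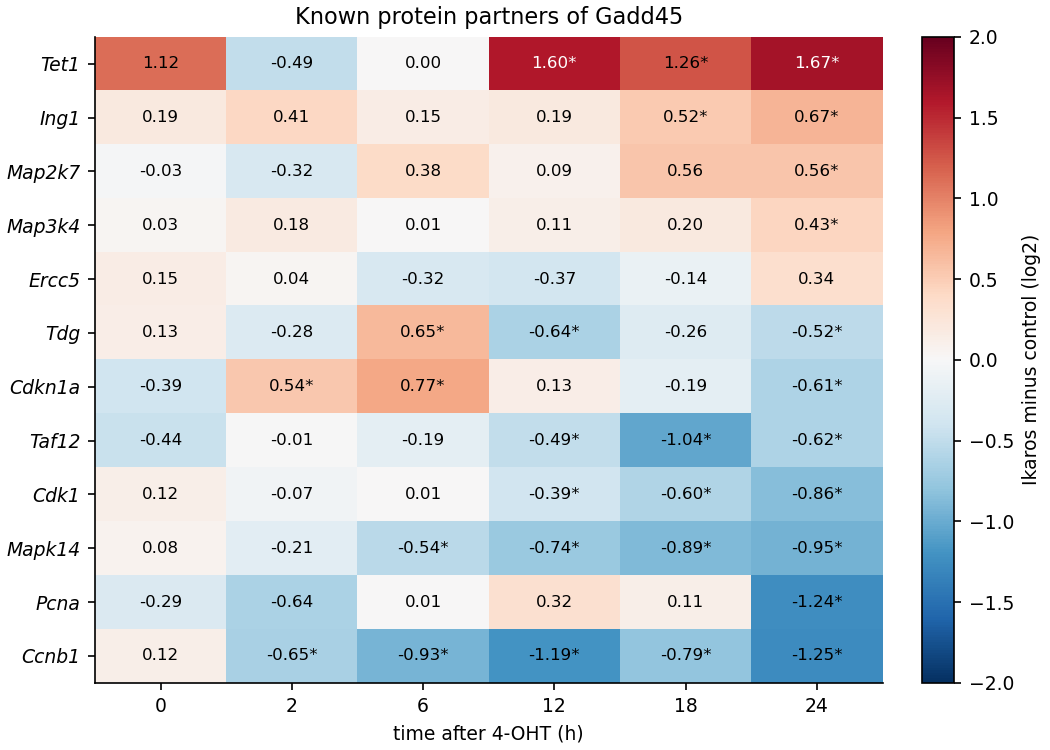
Difference Ikaros minus control (log2, colour and number; 3 libraries per line) of the 12 known protein partners of Gadd45 at each time after 4-OHT (h), with an asterisk at a limma adjusted p under 0.05. The 0 h column has no asterisk, and the 24 h column has 4 on higher and 7 on lower genes.

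Wider lists around the family were counted at 24 h with the same model, by which 31% of all genes were higher and 31.9% lower. The lists and the direct partners share genes, such as Cdkn1a, Btg2, Mapk14, Tet1 and Taf12, so their counts are not independent. Relb, Nfkb1 and Nfkb2 are in both the list of transcription factors and that of NF-kB target genes. Of 17 transcription factor genes known to act on Gadd45 genes, 11 were higher, 5 lower and 1 not called, with a median of 0.67. Rel, an NF-kB subunit, had a 24 h control mean of 9.10 ± 0.36 and an Ikaros mean of 12.57 ± 0.45. For Foxo1 the control mean was 14.46 ± 0.09 and the Ikaros mean 16.59 ± 0.09 (SD, n = 3). The differences of Rel and Foxo1 were 3.47 and 2.13. Myc, which represses Gadd45a, differed by -2.52 and Egr1 by -2.02. Trp53, the p53 gene, was among those lower (-0.93, limma adjusted p 7.31e-09). At 0 h none of the 17 was higher and 1 was lower, against 4.61% and 3.72% of all genes.

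Other targets of the same factors were divided. Of 15 p53 target genes 8 were higher and 5 lower, where 31% and 31.9% of all genes were, with Trp53inp1 at 5.63 and Btg2 at 3.52 on one side and Aen at -2.22 and Cdkn1a at -0.61 on the other. Of 12 NF-kB feedback and target genes 9 were higher, 2 lower and 1 not called, with a median of 0.82. Nfkbie, an inhibitor of NF-kB, differed by 1.80 and Birc3 by 1.50, whereas Cflar (-1.23) and Nfkbib (-0.34) were lower. At 6 h the same NF-kB list had 2 higher and 5 lower, when 18.1% of all genes were higher and 19.2% lower.

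Of 13 kinases of the p38 and JNK cascade 5 were higher, 4 lower and 4 not called, shares near the 31% and 31.9% of all genes, with Map3k1 at 2.50 and Map3k5 at 0.80 and, on the other side, Map2k3 at -1.58. Of 11 genes of active DNA demethylation 4 were higher, 3 lower and 4 not called, with the glycosylase Neil1 at 4.97 and the endonuclease Apex1 at -1.31. A list of other genes named for growth arrest or DNA damage also held stress relatives not so named, Atf3 and Trib3 among them. Unlike Gadd45a, Gadd45b and Gadd45g, most of its genes were not higher: of 9, 6 were lower and 2 higher, with a median of -1.02. Atf3 differed by -4.47 and Trib3 by -3.40, both targets of Atf4, and Gas7 (3.49) and Ddit4 (0.75) were the 2 higher. Of 15 G1 arrest regulators 8 were higher and 6 lower, with the CDK inhibitor Cdkn1b at 3.14 and the cyclins Ccnd1 at -4.13 and Ccnd2 at -3.25. In this list the inhibitors and the cyclins have opposite roles, so its count has no single direction.

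**Figure D5:**
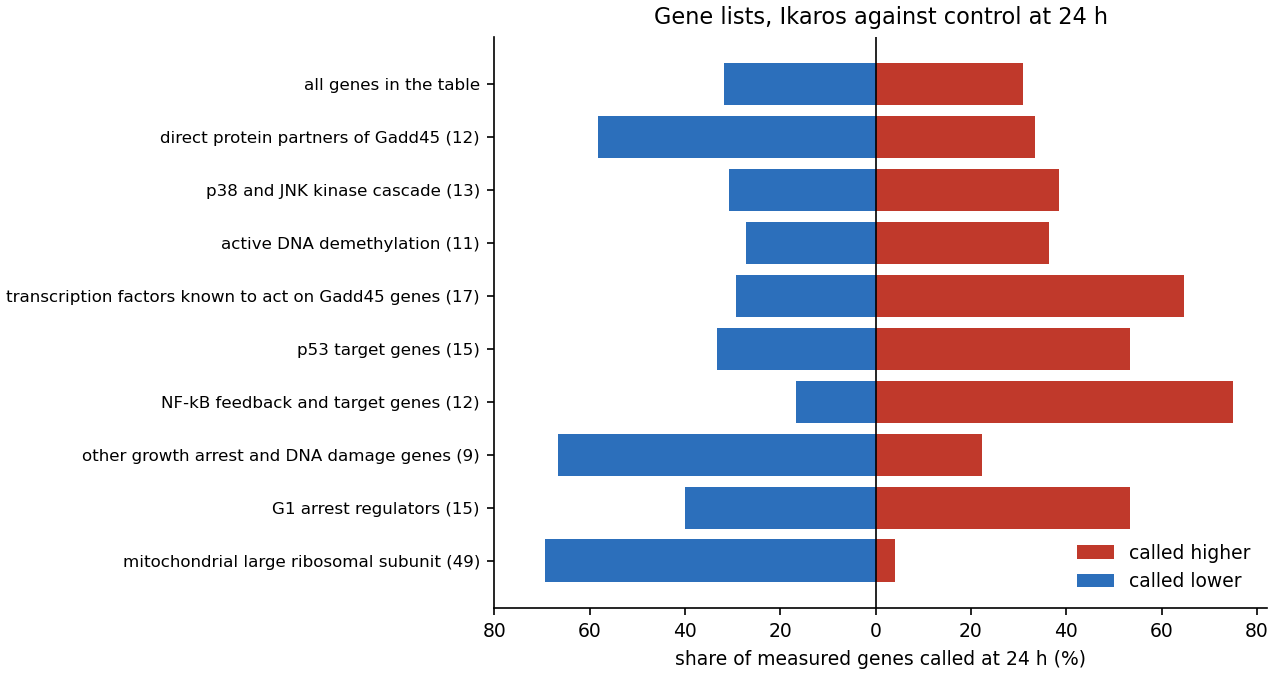
Share (%) of the measured genes of each list that were called higher (red, to the right) or lower (blue, to the left) in Ikaros than in control cells at 24 h, with the number of measured genes in brackets and all 12762 genes at the top. Of NF-kB genes 9 of 12 are higher and of the mitochondrial large subunit 34 of 49 lower, against 31% and 31.9% of all genes.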

How the data were processed

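RNA from 36 cultures was sequenced as strand-marked poly(A) libraries. The authors aligned reads to mm10 with TopHat2, counted genes with HTSeq, normalized with cqn and adjusted library preparation with ComBat. The deposited values are log2 expression with a constant added so that the lowest is 1, and the base of the logarithm is not stated in the table. Batch adjustment before deposition may make the standard errors too small. No counts were used here, so depth is unknown, and precision is limited by 3 libraries per group.

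All 12762 genes went into 1 limma model (limma 3.58.1, R 4.3.3, 12 group means, eBayes) with two-sided p adjusted by Benjamini-Hochberg, and the code was tested on simulated data. Annotation was GENCODE M21, with 98.7% of genes matched, and promoters came from RefSeq. The members and gene lists were chosen with earlier results of these data known. Genes named are the members, all direct partners, the 2 called genes with the largest rise and the 2 with the largest fall per other list at 24 h whose libraries do not overlap, the 3 measured neighbours on either side (1 left out), the 3 most correlated genes, and Ikzf1. The markers given at 24 h and Trp53 were added after their values were seen.

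The labels give the cultures of one batch of both lines a shared number, so the numbers pair the libraries. Over the 18 pairs deviations from the group means correlated between -0.0620 and 0.507 across genes (median 0.127), with 12 above 0.1. Alternatives were the batch as a replicate block (also with separate blocks for 0 h), quantile normalization, a filter at the 25th percentile of gene means, robust eBayes with a trend, separate fits of the groups of a comparison, and leaving out each replicate. One neighbouring gene and one marker are not reported here.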

Additional observations from a re-analysis of the deposited data

Results flagged for a closer look

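These results were singled out because the difference between the lines changed over the course by a test of the change itself (limma, adjusted over all genes). For Gadd45a the difference grew from 0 h by 1.54 at 12 h (adjusted p 0.00102), 2.77 at 18 h (adjusted p 2.53e-07) and 2.91 at 24 h (adjusted p 7.05e-08), and from 2 h by 1.14 (adjusted p 0.0166), 2.36 (adjusted p 3.40e-06) and 2.51 (adjusted p 9.36e-07) at the same times. The 12 h against 2 h change was not called when only those groups were fitted (adjusted p 0.156) or without replicate 1 (0.87, adjusted p 0.246) or 2 (1.16, adjusted p 0.112), and that against 0 h not without replicate 1 (1.14). For Gadd45g it grew from 0 to 24 h by 1.92 (adjusted p 0.0128), not called without replicate 1 (adjusted p 0.141) or 3 (adjusted p 0.105). For Gadd45gip1 it changed from 0 h by -0.90 at 18 h and -0.88 at 24 h (adjusted p 0.0206 for both), and from 2 h by -0.99 (adjusted p 0.0118) and -0.97 (adjusted p 0.0119). None of these 4 was called without replicate 2 (adjusted p 0.0747 to 0.132), and that at 18 h against 2 h also not when only those groups were fitted (adjusted p 0.0603). These comparisons share their control and 0 h or 2 h libraries. Groups of 3 libraries were not screened for outlying libraries.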

How the results depend on the processing

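Most results kept their side of the threshold, and no called value changed sign. Uncalled values near 0 did in places, such as Gadd45a between the lines at 2 h (-0.0015, from -0.13 to 0.22 without a replicate or library). Under the settings other than leaving out replicates, 287 of 293 values of the main comparisons were unchanged and 6 lost their call or fell by over 1.5 times. Unchanged values include those that were never called. For Gadd45b between the lines, which has no test, unchanged means a shift smaller than its pooled SD. Fitting only the groups compared gave adjusted p 0.0602 for Gadd45g at 6 h (1.55) and 0.0692 for Gadd45a at 12 h (1.13), and reduced the genes called to 860 at 2 h and 2150 at 6 h. The filter reduced those at 0 h to 701 and removed Gadd45g, so it has no value there. The replicate block changed no call between the lines at one time. With separate blocks for 0 h, Gadd45g in Ikaros cells at 24 h against 0 h was 1.30 (adjusted p 0.0693). Leaving out replicates kept 385 of 411 such values, and the ranges of the others follow. They were 0.65 to 1.16 for Gadd45g at 2 h, called without replicate 3 (1.09, adjusted p 0.0468), 1.06 to 1.87 at 6 h and 1.18 to 1.64 at 12 h, 0.85 to 1.50 for Gadd45a at 12 h and 4.07 to 4.60 for Gadd45b at 6 h. In Ikaros cells at 24 h against 0 h they were 1.20 to 1.89 for Gadd45g and -0.88 to -0.64 for Gadd45gip1, neither called without replicate 1. The change of the difference from 0 to 24 h was 1.06 to 2.86 for Gadd45g, not called without replicate 1 or 3 or the control library of batch 4 at 24 h, and -1.11 to -0.76 for Gadd45gip1, not called without replicate 1 or 2, that control library or the Ikaros library of batch 1 at 24 h. The F of Gadd45gip1, called at 3.98 with all libraries, was 2.39 to 3.59 without each replicate and not called. Genes called between the lines ranged from 318 to 1204 at 0 h, 804 to 2719 at 2 h, 2640 to 4971 at 6 h and 3769 to 5921 at 12 h, lowest without replicate 2 at 0, 2 and 12 h and without replicate 1 at 6 h. For the remaining time points, gene counts and correlations, 589 of 624 values did not change under the other settings and 1042 of 1146 when replicates were left out. With the replicate block Gadd45b at 2 h against 0 h in Ikaros cells was -0.59 (adjusted p 0.0551). The cause of these changes was not tested.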
